A study of Homo sapiens with 5 samples.

Results

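Heat shock proteins and their cochaperones were examined as 26 genes of 14812 genes with a named probe set, in irradiated LNCaP prostate cancer cells with and without a hairpin against RB1. LNCaP is an established, androgen-responsive human prostate cancer line. The genes were chosen by symbol: those starting with HSPA, HSPB, HSPD, HSPE, HSPH, HSP90 or DNAJ, and BAG, CCT or HSF followed by a digit, without HSPA5, chromosome 21 genes, pseudogenes and antisense transcripts. Of 30 genes with such symbols, the pseudogene HSPA7, the antisense transcripts DNAJC9-AS1 and DNAJC27-AS1 and the chromosome 21 gene HSF2BP were dropped. HSP90, DNAJ, HSPE and CCT genes were not analysed here, since no named probe set used here carried such a symbol apart from the DNAJ antisense transcripts. Single genes of the other families, among them HSPA8 and HSF2, were missing for the same reason. The 26 genes comprise 12 of the HSP70 and HSP110 families, 5 BAG cochaperones, 4 transcripts of the small heat shock protein group, 3 heat shock factors, the chaperonin HSPD1 and HSPBAP1.

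Both groups had received a retrovirus under puromycin selection, a scrambled hairpin in shControl (2 arrays) and a hairpin against RB1 in shRB (3 arrays). Both were then exposed to 10 Gy of ionizing radiation, and RNA was taken 24 h later. No unirradiated array was used here, so every difference is between irradiated cells. The labels do not say whether arrays came from separate cultures or whether the cells were clones, so p-values measure the spread between these arrays, which may be technical. In bulk RNA, fewer cells expressing a gene and less RNA per cell cannot be told apart. Values are given below in order of replicate number.

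Heat shock proteins are chaperones that bind unfolded proteins and help them fold, and many are induced by protein damage. HSP70 proteins work in a cycle of ATP hydrolysis: J-domain proteins start it by delivering a client, and nucleotide exchange factors, among them the BAG and HSP110 proteins, end it by releasing ADP. HSF1 is the main transcription factor of the heat shock response and binds inverted repeats of a short unit, the heat shock element. RB1 encodes the retinoblastoma protein, which restrains E2F transcription factors.

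RB1, the target of the hairpin, had log2 intensities of 5.81 and 5.70 in shControl and 5.16, 5.28 and 5.20 in shRB, without overlap (log2 difference -0.54, limma adjusted p = 0.0967). The median probe set of an array had a log2 intensity between 4.74 and 4.81. The luminal prostate markers KLK3, KLK2, FOLH1, HOXB13, KRT8 and KRT18 lay above it in all 5 arrays. So did the basal keratin KRT5, the macrophage marker CD68 and the endothelial marker VWF, while the basal KRT14 did in 3 arrays and the fibroblast marker DCN in 0. None of these 11 markers passed limma's test. In 3 of them the shRB arrays lay below shControl without overlap: VWF (1.57-fold lower as deposited, adjusted p = 0.164), KRT18 (1.22-fold, adjusted p = 0.366) and HOXB13 (1.12-fold, adjusted p = 0.586). The part of other cells in the results below was not tested.

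The promoters are shown first, because the heat shock element is the sequence that HSF1 binds. RefSeq promoters (GRCh38.p14, from 250 bases before to 50 after the gene start) were found for 21 of the 26 genes, as 27 windows. The shortest element searched was a pair of inverted units, GAANNTTC or TTCNNGAA, which each read the same on both strands. It occurred in 11 of 27 member windows, against 13.5% of all 35116 promoters. The longer form of 3 units, GAANNTTCNNGAA or TTCNNGAANNTTC (each the reverse complement of the other, and each holding both pairs), occurred in 2 of 27 windows against 0.49% of all promoters. A match describes the letters of the window and shows no binding. The windows below are a selection: HSPA4L, HSPB3, HSPA9 and HSPA1L also held a pair, and their windows are not printed. In the windows below, 5′ to 3′ along the gene's strand, capitals mark matches to a pair of units and the bases they span.
HSPA6 (chr1:161524446-161524498, plus strand): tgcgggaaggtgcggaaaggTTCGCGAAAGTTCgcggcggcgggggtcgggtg
HSPD1 (chr2:197500048-197500090, minus strand): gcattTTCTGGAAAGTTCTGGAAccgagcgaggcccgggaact
HSPA1A (chr6:31815417-31815464, plus strand): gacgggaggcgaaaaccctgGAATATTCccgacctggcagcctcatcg
HSPA1B (chr6:31827613-31827660, plus strand): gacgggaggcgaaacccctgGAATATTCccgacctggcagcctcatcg
HSPB1 (chr7:76302471-76302518, plus strand): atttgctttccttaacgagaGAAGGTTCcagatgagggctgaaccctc
HSPB8 (chr12:119178823-119178870, plus strand): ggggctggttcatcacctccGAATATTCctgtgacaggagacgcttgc
BAG2 (chr6:57172182-57172229, plus strand): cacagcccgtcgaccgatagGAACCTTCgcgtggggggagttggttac

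HSPA6 and HSPD1 held the 3-unit form (HSPA6 and HSPB8 each also hold a separate pair, not shown), the HSPD1 match lying in the window of 1 of its 2 annotated starts and running over 18 bases. The HSPA1A and HSPA1B windows are identical at 47 of 48 positions. The HSPA1A match is also the match of HSPA1L, whose gene runs the other way from a promoter that overlaps that of HSPA1A by 241 bases. BAG2 was the only member that passed the test below, and its match began 124 bases before the gene start. Of the 11 genes with a pair of units, 4 had positive and the others negative differences between shRB and shControl, and of the 10 genes without one 6 were positive. HSPA1A and HSPA1L, which share a match, are both counted and have opposite signs. Only exact letters within these windows were searched, so genes without a match, among them BAG3 and HSPH1, may hold altered or more distant elements. An E2F motif (TTTCCCGC, TTTCGCGC, TTTGCCGC or TTTGGCGC, both strands) occurred in 2 of 27 member windows, those of HSPBAP1 and HSF4, against 3.31% of all promoters.

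The members spanned most of the intensity range. HSPD1, HSPB1 and HSPA1B were the members with the highest log2 intensities, between 9.56 and 10.75 in every array, and HSPB3 lay at 4.0 to 4.18, the floor of the deposited values. In 20 of the 26 genes all 5 arrays lay above the median probe set of the array. The exceptions were HSPA12B and HSPA2 (3 arrays above), HSPA6, HSF5 and BAG2 (2 arrays) and HSPB3 (0). Intensities of different probe sets depend on the probes as well as on the transcript, so the order of the genes is not an order of transcript number.

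**Figure D1:**
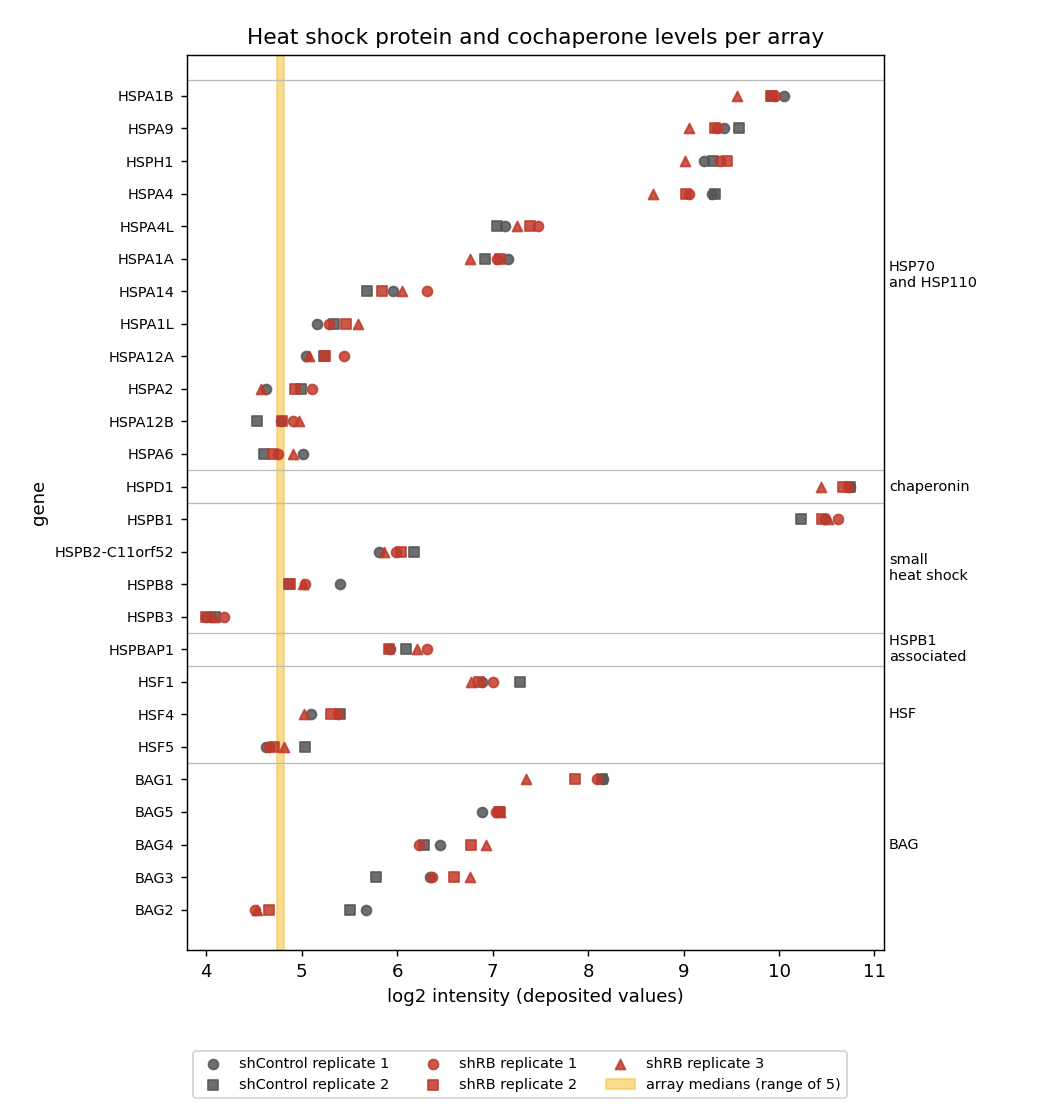
Log2 intensity (x axis) of the 26 genes (y axis, grouped by role) in each array; grey points are shControl and red points shRB, circles, squares and triangles are replicates 1, 2 and 3, and the yellow band spans the medians of the arrays. The BAG2 points of shRB sit left of the band and those of shControl right of it, while HSPB3 sits at the floor near 4.0 in all arrays.

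The comparison of shRB with shControl asked which of these genes differ between irradiated cells with and without the RB1 hairpin. An effect of RB1 loss cannot be told apart here from other effects of the hairpin or from differences between the cells. BAG2 fell, and the other 25 genes did not pass limma's test with Benjamini-Hochberg adjustment over all 14812 genes. That is 1 of 26, against 1.07% of all genes tested. At an unadjusted p under 0.05, 3 of 26 passed (BAG2, BAG3 and HSPA4) against 18.1% of all genes. Differences were positive in 13 genes and negative in 13, with a median of 0.004 on the log2 scale, beside 0.02 over all genes. The median size of the difference regardless of sign was 0.17 in the members and 0.18 over all genes. Arrays did not overlap between groups in 3 genes that were higher in shRB (BAG3, HSPA4L and HSPA12B), against 20.6% of all genes, and in 5 that were lower (BAG2, HSPA4, BAG1, HSPA9 and HSPD1), against 15.4%. Among these 8 genes the gap between the nearest arrays of the groups was 0.84 in BAG2, but 0.010 in HSPA12B, 0.015 in HSPD1 and 0.020 in BAG3.

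**Figure D2:**
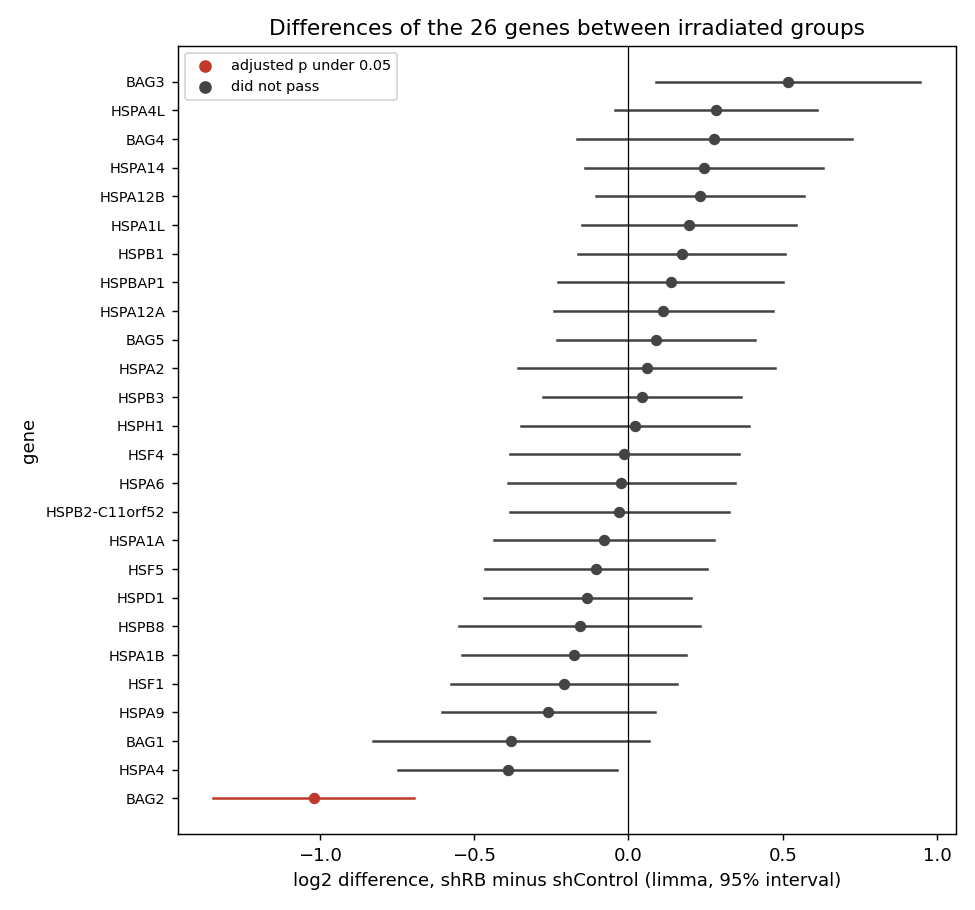
Log2 difference between shRB and shControl (x axis, points) with limma's 95% interval (lines) for the 26 genes (y axis), ordered by difference. BAG2, in red, stands at -1.02 with an interval of -1.34 to -0.69, and the other 25 genes, in grey, lie between -0.39 and 0.52.

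Among the BAG cochaperones, BAG2 had log2 intensities of 5.67 and 5.50 in shControl and 4.51, 4.66 and 4.54 in shRB. The groups were far apart relative to their own spread, with all 3 shRB arrays below the median probe set and both shControl arrays above it. BAG2 is an HSP70 nucleotide exchange factor that also inhibits CHIP, the ubiquitin ligase that marks chaperone clients for degradation. Its mean fell from 5.59 ± 0.12 (SD, n = 2) to 4.57 ± 0.08 (SD, n = 3), a log2 difference of -1.02 (SE 0.15, limma adjusted p = 0.0101). This is 2.03-fold lower on the deposited scale, and 4.16-fold lower as a ratio of the group means of linear intensity minus the floor value of 16, a ratio with no test of its own. No measure of background was used here, so the true fold of the transcript stays unknown. BAG2 did not pass without shRB replicate 1, 2 or 3 (adjusted p = 0.0963, 0.0744 and 0.113), with differences of -0.99, -1.06 and -1.004, nor in a fit with 16 subtracted and 4 added before log2 (difference -1.62, adjusted p = 0.0827).

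BAG2 lies on chromosome 6, where its nearest neighbours among the tested genes, in RefSeq order, were KIAA1586 and ZNF451 on the side of lower coordinates and PHF3 and EYS on the other. Their log2 differences were 0.10, -0.05, 0.04 and -0.05, and the arrays of the groups overlapped in all 4. Only the order was used and not the distance, so these genes need not lie close to BAG2. Genes without a named probe set may lie between. The 250 bases before the BAG2 gene start (plus strand, within chr6:57172076-57172375) are shown whole because it is the member that fell, with the match again in capitals.
BAG2: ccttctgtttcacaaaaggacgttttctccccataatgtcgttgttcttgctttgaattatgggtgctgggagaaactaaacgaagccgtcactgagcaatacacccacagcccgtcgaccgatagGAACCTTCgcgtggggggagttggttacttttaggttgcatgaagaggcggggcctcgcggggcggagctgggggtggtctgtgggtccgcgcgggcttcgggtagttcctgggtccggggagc

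BAG3, a partner of HSPB8 in the selective autophagy of misfolded proteins, had the largest positive difference of the members. It stood at 6.34 and 5.77 in shControl and 6.36, 6.59 and 6.77 in shRB. The groups did not overlap, but shControl replicate 1 lay just below shRB replicate 1, and the shControl arrays differed from each other by more than the difference of the means. That difference was 0.52 (SE 0.20, 95% interval 0.09 to 0.95, adjusted p = 0.198). It was 0.80 without shControl replicate 1 and 0.23 without shControl replicate 2.

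BAG1, which couples HSP70 to the proteasome, stood at 8.15 and 8.14 in shControl and 8.09, 7.87 and 7.35 in shRB. The shControl arrays were nearly equal and the shRB arrays were spread, with replicate 3 lowest. The log2 difference was -0.38 (SE 0.20, adjusted p = 0.352), and -0.17 without shRB replicate 3. BAG4, a silencer of death receptor signalling, stood at 6.44 and 6.28 against 6.22, 6.77 and 6.93, so the groups overlapped and shRB replicate 1 lay below both shControl arrays (difference 0.28, adjusted p = 0.504). BAG5 lay between 6.88 and 7.08 in all 5 arrays, with a difference of 0.09 (95% interval -0.23 to 0.41).

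**Figure D3:**
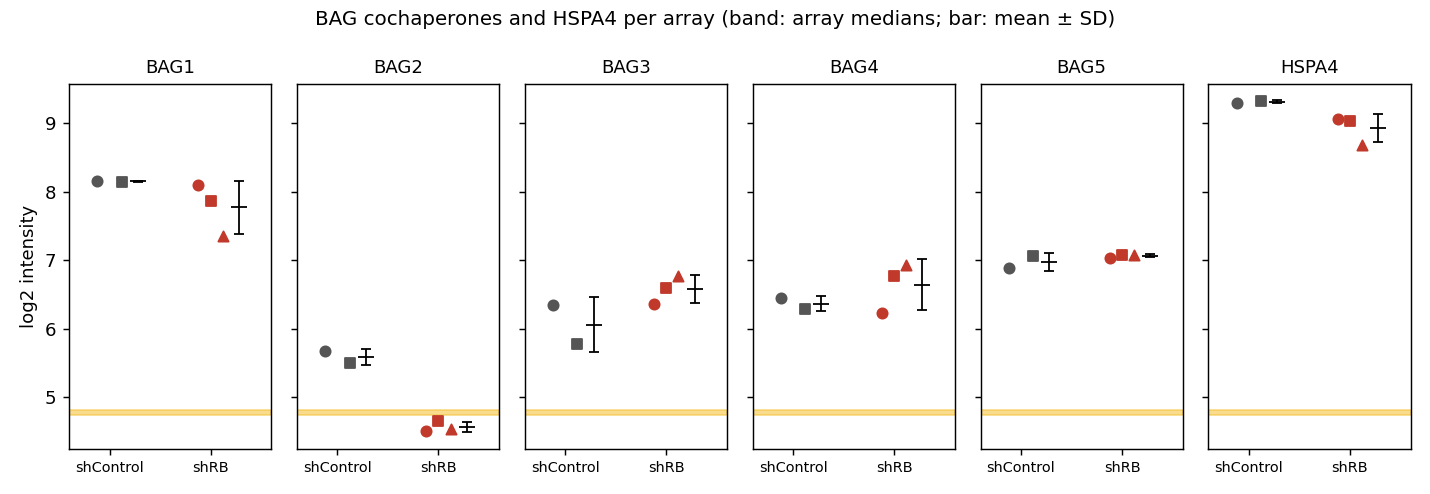
Log2 intensity (y axis) of the BAG genes and HSPA4 in shControl (grey) and shRB (red), each point an array, with circles, squares and triangles for replicates 1, 2 and 3; black bars are means ± SD and the yellow band spans the array medians. BAG2 drops from 5.59 to 4.57 with small spread, whereas BAG1, BAG3 and BAG4 have a group whose arrays are spread by 0.57 or more from lowest to highest.

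None of the HSP110 family members, which are larger relatives of HSP70 and exchange its nucleotide, passed the test. HSPA4 stood at 9.30 and 9.33 in shControl and 9.05, 9.03 and 8.68 in shRB. Its groups did not overlap, and the difference of -0.39 (SE 0.16, 95% interval -0.75 to -0.04) did not pass (adjusted p = 0.234). Without shRB replicate 3 it was -0.27. HSPA4L, a paralog of HSPA4, stood at 7.13 and 7.05 against 7.48, 7.39 and 7.25, again without overlap but with shRB on the upper side (difference 0.28, SE 0.15, adjusted p = 0.338). Whether the differences of HSPA4 and HSPA4L between the groups differ from each other was not tested. HSPH1, also called HSP105, stood at 9.22 and 9.31 against 9.38, 9.45 and 9.02, so the shRB arrays lay on both sides of shControl (difference 0.02, 95% interval -0.35 to 0.39).

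Among the HSP70 proteins, the stress-inducible HSPA1B stood at 10.05 and 9.93 in shControl and 9.96, 9.92 and 9.56 in shRB. The groups overlapped, and shRB replicate 3 was the low array (difference -0.18, SE 0.17, adjusted p = 0.612). HSPA1A, which encodes a nearly identical protein, stood at 7.16 and 6.92 against 7.05, 7.08 and 6.76 (difference -0.08, SE 0.16, adjusted p = 0.836). Each of these genes had 5 probe sets, and they did not all give the same sign: differences ran from -0.08 to 0.16 for HSPA1A and from -0.18 to 0.04 for HSPA1B. In each of these genes only the dimmest probe set was positive. Probes for such close copies can share signal, so their values cannot be fully assigned to 1 gene. The brightest HSPA1A probe set and the next, both negative, had nearly equal values in every array. In shControl replicate 1 they read 7.1589 and 7.1524, so they are not separate measurements. The 5 probe sets of HSPA1L, the neighbouring gene that is best known from testis, gave 0.18 to 0.20. Some of them had nearly equal values in every array, such as 5.2285, 5.2274 and 5.2349 in shControl replicate 1. They are therefore not separate measurements. The brightest HSPA1L probe set stood at 5.16 and 5.34 against 5.28, 5.46 and 5.59 (adjusted p = 0.548). HSPA6, a strictly inducible HSP70 with the 3-unit element in its promoter, lay near the array medians in both groups, at 5.02 and 4.61 against 4.75, 4.70 and 4.91 (difference -0.02, adjusted p = 0.961).

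HSPA9, or mortalin, the HSP70 of the mitochondrial matrix, stood at 9.43 and 9.58 in shControl and 9.35, 9.33 and 9.05 in shRB. Its groups did not overlap, and the difference of -0.26 (SE 0.16, adjusted p = 0.411) became -0.17 without shRB replicate 3. HSPD1, the chaperonin HSP60 of the same compartment, stood at 10.75 and 10.74 against 10.72, 10.67 and 10.44. The gap between the groups was narrow and shRB replicate 3 was again the low array (difference -0.13, SE 0.15, adjusted p = 0.687, and -0.05 without that array). HSPA14, a ribosome-associated HSP70, stood at 5.96 and 5.68 against 6.31, 5.84 and 6.05, with overlap (difference 0.24, adjusted p = 0.496). HSPA12B and HSPA12A, divergent relatives of HSP70, had differences of 0.23 (adjusted p = 0.456) and 0.11 (adjusted p = 0.751). HSPA12B stood at 4.79 and 4.54 against 4.91, 4.80 and 4.97, close to the array medians. HSPA2, an HSP70 of spermatogenesis, had a difference of 0.06 (adjusted p = 0.902).

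HSPB1, or HSP27, a small heat shock protein that holds unfolded clients in large oligomers, stood at 10.48 and 10.23 in shControl and 10.62, 10.45 and 10.51 in shRB. The groups overlapped, and shControl replicate 2 was the low array (difference 0.17, SE 0.15, 95% interval -0.16 to 0.51, adjusted p = 0.588). Without shControl replicate 2 the difference was 0.05. HSPB8, the partner of BAG3, stood at 5.40 and 4.87 against 5.04, 4.88 and 5.01, so the shRB arrays lay between the shControl arrays (difference -0.16, adjusted p = 0.678). HSPB3, known from muscle, lay at the floor in both groups (4.0 and 4.09 against 4.18, 4.0 and 4.08), so its difference of 0.04 on the deposited scale gives no fold of the transcript. HSPB2-C11orf52 is a non-coding readthrough transcript that meets the symbol rule but makes no heat shock protein, and its difference was -0.03 (adjusted p = 0.948). HSPBAP1, which encodes a protein that binds HSPB1, stood at 5.92 and 6.09 against 6.31, 5.91 and 6.21 (difference 0.14, adjusted p = 0.703).

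The measured heat shock factors, which do not include HSF2, showed no difference past the threshold. HSF1 stood at 6.88 and 7.29 in shControl and 7.002, 6.86 and 6.77 in shRB, with overlap and with the 2 shControl arrays further apart than the group means (difference -0.21, SE 0.17, adjusted p = 0.548). HSF4, a factor of the lens, had a difference of -0.01 (95% interval -0.38 to 0.36), and its dimmer probe set gave 0.22. HSF5, a factor of male germ cells, had a difference of -0.11 (adjusted p = 0.774) at levels near the array medians. HSF1 is controlled largely at the protein level, so its transcript level is no measure of its activity.

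The arrays of a group did not vary evenly. Among the 20 members above the median probe set in all arrays, shRB replicate 3 was the lowest of the 5 arrays in 9 (BAG1, HSF1, HSF4, HSPA1A, HSPA1B, HSPA4, HSPA9, HSPD1 and HSPH1), that is 45.0%. The same array was lowest in 27.9% of the 8220 genes above the median probe set in all arrays. For shControl replicate 2 the counts were 5 of the 20 members and 28.8% of those genes. After quantile normalization between arrays, shRB replicate 3 was lowest in 10 of 20 members and 25.3% of those genes. There shControl replicate 2 was lowest in 5 of 20 members and 29.2%. These shares are descriptions, and the part of shRB replicate 3 in the negative differences of the members was not tested beyond leaving it out.

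The differences of BAG2, BAG3 and HSPA4 kept their direction under each alternative that could be run. On the log2 scale of each setting, BAG2 lay between -1.62 and -0.93, BAG3 between 0.23 and 0.80, and HSPA4 between -0.46 and -0.27. The ends of the BAG3 range came from the fits without shControl replicate 1 (0.80) and without shControl replicate 2 (0.23). Each of these fits leaves 1 shControl array, so that group adds no spread.

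**Figure D4:**
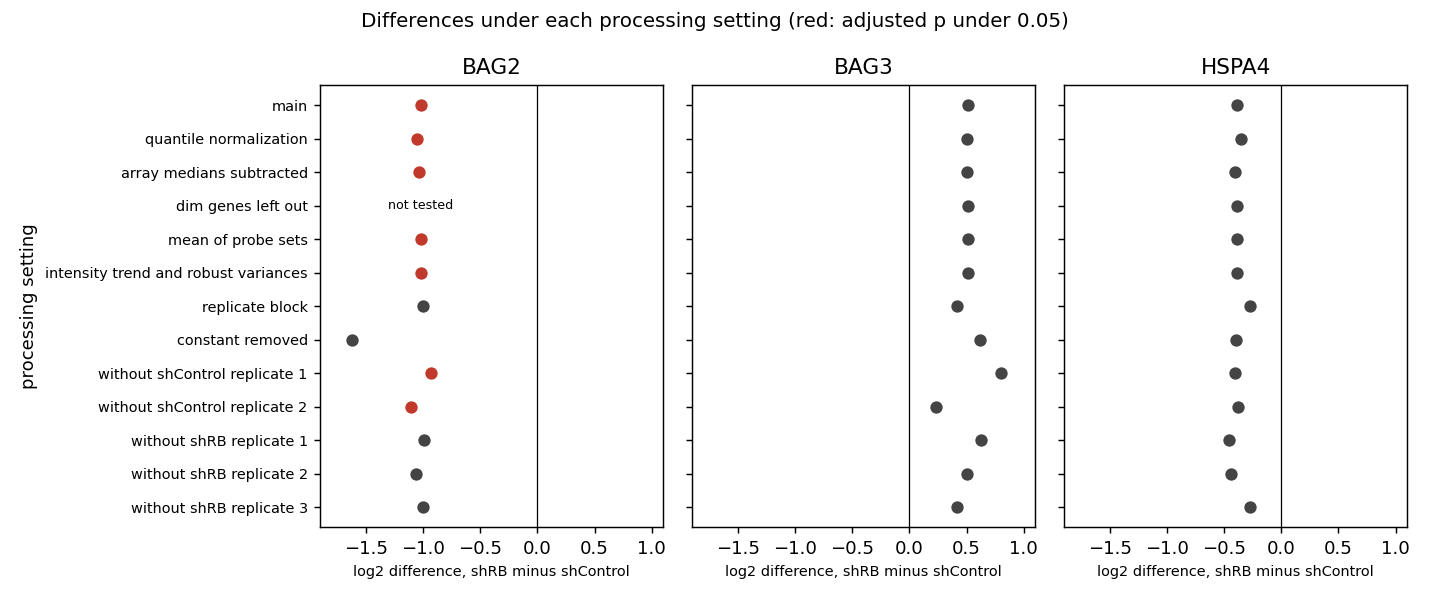
Log2 difference between shRB and shControl (x axis) of BAG2, BAG3 and HSPA4 under the main setting and each alternative (y axis), red where the adjusted p was under 0.05. BAG2 stays below 0 wherever it was tested, from -1.62 to -0.93, and is red in some settings and grey in others, while BAG3 and HSPA4 are grey in all.

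Other genes of the chaperone network were taken from a list of 63 symbols for HSP90 cochaperones, prefoldins, mitochondrial chaperones and proteases, and HSP70 partners, of which 41 were measured. By limma, with adjustment over all genes, 0 of 41 passed, against 1.07% of all genes tested. Of the 41, 7 had an unadjusted p under 0.05, against the 18.1% of all genes given above. Differences were positive in 20 and negative in 21, with a median of -0.01 and a range of -0.40 to 0.40. Of the prefoldin subunits, which deliver unfolded actin and tubulin to the cytosolic chaperonin, PFDN6 stood at 7.96 and 8.21 against 7.82, 7.64 and 7.63 (difference -0.39, adjusted p = 0.221). PFDN4 stood at 7.13 and 6.93 against 7.33, 7.33 and 7.63 (difference 0.40, adjusted p = 0.222). The other measured subunits VBP1, PFDN1, PFDN2 and PFDN5 had positive differences too, of 0.28, 0.27, 0.21 and 0.18, and none of the 6 subunits passed. RPAP3, which links HSP90 to the assembly of RNA polymerase, had a difference of 0.37 (adjusted p = 0.232), and CDC37L1, a relative of the kinase cochaperone CDC37, of 0.36 (adjusted p = 0.232). Across the whole list the arrays of the groups did not overlap in 10 genes that were higher in shRB and 9 that were lower, out of 41, beside the 20.6% and 15.4% of all genes given above. TRAP1, the mitochondrial HSP90, had a difference of -0.29 (adjusted p = 0.440), STIP1, which bridges HSP70 and HSP90, of 0.01, and PTGES3, the HSP90 cochaperone p23, of -0.10.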

How the data were processed

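The authors deposited linear intensities, 1 per probe set, for 5 single-colour arrays hybridised with biotin-labelled cDNA, per the labels' protocols. How background, summary and normalization were handled, and with which software and build, is not given in the sources used here. The lowest deposited values lay just above 16, and such a constant compresses the fold changes of dim genes. The platform annotation named 1 gene for 15835 of 44607 probe sets and several for 0, and 28772 were unnamed. The RefSeq table of GRCh38.p14 gave current symbols (all 15835 matched). Each gene is represented by its brightest probe set (mean of log2 values). Values were log2-transformed without further normalization or filter. Groups, taken from the titles, were compared with limma 3.58.1 (R 4.3.3, lmFit and eBayes, no covariate, two-sided), with Benjamini-Hochberg adjustment over all 14812 genes and a threshold of 0.05. The fit was tested on simulated data of independent genes. That check required recovery only of differences larger than any found in the members, so it does not show how well smaller ones are found. Promoters and motifs were read from RefSeq with Python 3.11.15.

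Every member is given. Values per array were set out for members past the threshold, the 6 largest differences each way, the brightest of each role group, preset well-known members, and the 4 other chaperone genes with the smallest p. TRAP1, STIP1 and PTGES3 were added after their values were seen. VBP1, PFDN1, PFDN2 and PFDN5 were also given outside these rules, as were the values per array of HSPA6, HSPB8 and HSPB3. RPAP3 and CDC37L1 are given by their differences only. The members and lists were chosen with earlier results of these data known. The number of arrays limits the precision.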

Additional observations from a re-analysis of the deposited data

How the results depend on the processing

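Over all genes, 159 passed as reported, against 385 with the dimmer genes (mean below the median gene) dropped, 426 with an intensity trend and robust variances, 13 with the constant removed (16 subtracted and 4 added before log2) and 24 with the replicate number as a block. Leaving out 1 array gave 22 to 411. The single member that passed, BAG2, is not among the 7406 genes left when dim genes are dropped, so 0 members passed there. It was also 0 with the constant removed, with the replicate block, and without 1 shRB array. The block rests on numbers that do not pair the arrays (correlation of deviations -0.021 and 0.046). The third shRB array has no partner there, so the block gave the differences found without it. The block changed the call of BAG2 among the members (adjusted p = 0.117). The median over members was -0.0345 to 0.0945 without 1 array. The sign of 16 of the 26 members was kept under all 12 alternatives that tested them. The other 10 did not pass under any setting. HSF4 was positive with the mean of its probe sets (0.10) and with the block (0.095), as were HSPA1A (0.021) and HSPB2-C11orf52 (0.020) with the block. Without 1 array the ranges were -0.0006 to 0.18 for BAG5, -0.16 to 0.14 for HSF4, -0.31 to 0.099 for HSF5, -0.20 to 0.041 for HSPA1A, -0.12 to 0.24 for HSPA2, -0.23 to 0.18 for HSPA6, -0.22 to 0.16 for HSPB2-C11orf52, -0.0039 to 0.090 for HSPB3 (at the floor, so without a fold), -0.42 to 0.11 for HSPB8 and -0.064 to 0.15 for HSPH1. Apart from the left-out genes and arrays, the cause was not tested. Dim members such as HSPB3, HSPA6 and BAG2 in shRB are limited by signal over background.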
